A study of Mus musculus with 2 samples.

Results

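The inhibitors of cyclin-dependent kinases (CDKs) and the feedback loop around the tumour suppressor p53 were examined in mouse heart and in mouse embryonic fibroblasts (MEF). The set named 10 genes: 4 INK4 inhibitors (Cdkn2a, Cdkn2b, Cdkn2c, Cdkn2d), 3 CIP/KIP inhibitors (Cdkn1a, Cdkn1b, Cdkn1c), and Trp53, Mdm2 and Ccng1 of the p53 loop. Members were all probes that the platform annotation assigns to one of these symbols. That gave 14 probes of 9 genes, out of 32664 probes of 19532 genes with a single symbol. No probe carries the symbol Trp53 in that annotation, so p53 itself was not analysed here. A probe annotated to the pseudogene Trp53-ps stood at -2.58 in heart-1 and -2.51 in heart-2, and it was not used in place of Trp53.

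The data are 2 two-colour Agilent arrays. On each, RNA of an untreated and uncultured mouse heart (heart-1 or heart-2), labelled with Cy3, was hybridised together with Cy5-labelled RNA of MEF. MEF are connective-tissue cells taken from embryos and grown as a dividing culture, here in serum-containing medium. Strain, age and sex of the hearts and passage number of the MEF are not given in the labels, nor are the numbers of animals and MEF cultures. Each value is a log2 ratio read as heart over MEF, so 1 stands for a 2-fold higher signal in heart. That direction is likely rather than stated: the design text speaks of heart compared with MEF, and all 9 cardiomyocyte markers had positive ratios, with Mybpc3 at 9.66 and Pln at 11.24. MEF RNA served as the reference channel on both arrays, so the spread between MEF cultures is left out, and the dyes were never exchanged, so any dye preference of a probe is part of its value. Below, a value "in heart-1" or "in heart-2" is the ratio on that heart's array. The p-values rest on the spread between the 2 arrays alone, and that spread may be technical.

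CDK inhibitors are small proteins that hold back the kinases driving the cell cycle. INK4 proteins bind CDK4 and CDK6 and keep them from D-type cyclins, which leaves the retinoblastoma protein able to restrain E2F transcription factors. CIP/KIP proteins bind assembled cyclin-CDK complexes, above all those of CDK2. Cdkn2a encodes p16INK4a and, from another first exon and reading frame, p19ARF, which frees p53 by binding its ubiquitin ligase MDM2. Active p53 switches on Cdkn1a, Mdm2 and Ccng1, and MDM2 in turn marks p53 for destruction. In cultured mouse embryonic fibroblasts the Arf and p53 pathway is known to limit how long the cells divide, and most cardiomyocytes of the adult mouse heart have left the cell cycle.

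Sequences before the annotated starts are shown for the genes on which the results turn: the chromosome 4 neighbours Cdkn2b and Cdkn2a, which had the lowest ratios of the set, Cdkn2d, the INK4 gene with a positive ratio, and Cdkn1a, the best-known p53 target among them. They are RefSeq sequences of build GRCm38.p6, read 5′ to 3′ on the gene's strand and ending at the last base before a start. Windows were found for 9 of the 10 named genes, 12 windows in all. Both strands were searched, over the 250 bases before each start. Capitals mark GGGCGG (or its complement CCGCCC), TTTCCCGC, and a pair of CATG tetramers with 6 bases of any kind between them, which resembles the paired core of a p53 site.
Cdkn2b, chr4:89311033-89311152, minus strand: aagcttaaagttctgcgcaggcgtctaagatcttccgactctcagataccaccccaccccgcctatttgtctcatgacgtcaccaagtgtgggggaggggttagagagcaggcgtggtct
Cdkn2a, distal (Arf) start, chr4:89294620-89294739, minus strand: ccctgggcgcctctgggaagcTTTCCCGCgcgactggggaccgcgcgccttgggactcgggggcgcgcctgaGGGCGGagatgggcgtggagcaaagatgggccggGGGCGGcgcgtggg
Cdkn2a, proximal (Ink4a) start, chr4:89282193-89282312, minus strand: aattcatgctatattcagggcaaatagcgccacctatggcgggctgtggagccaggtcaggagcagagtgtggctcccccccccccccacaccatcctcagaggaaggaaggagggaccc
Cdkn2d, chr9:21291210-21291329, minus strand: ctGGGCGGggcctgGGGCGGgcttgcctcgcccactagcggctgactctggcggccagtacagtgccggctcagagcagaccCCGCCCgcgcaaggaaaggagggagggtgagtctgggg
Cdkn1a, distal start, chr17:29090919-29090978, plus strand: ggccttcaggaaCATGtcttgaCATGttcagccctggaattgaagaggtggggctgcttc

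GGGCGG occurred 2 times before the Arf start and 3 times before the Cdkn2d start, and not in the windows before the Ink4a and Cdkn2b starts. It also occurred 3 times before a Cdkn2c start, 2 times before the Mdm2 start and 1 time before the Cdkn1b start. Of all 32851 promoter windows 32.7% hold it. TTTCCCGC, which resembles an E2F site, was found among the members only before the Arf start, and 0.895% of all windows hold it. The CATG pair was found among the members only before the distal Cdkn1a start, beginning 48 bases before it, and 0.490% of all windows hold it. The stricter p53 full site without a spacer was found in none of the 12 member windows, this one included, and in 3 of all windows. CpG pairs were at 0.110 of the number that base composition gives before the distal Cdkn1a start and at 0.771 before its proximal start, where GGGCGG occurred 2 times. The same measure was 1.08 before the Arf start and 0.316 before the Ink4a start, against a median of 0.373 over all windows. It was also 1.08 before the Cdkn1b start and 1.09 before the Mdm2 start. These are matches of letters and were not tested as binding sites.

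The INK4 genes went different ways. Cdkn2b and Cdkn2a were far lower in heart, Cdkn2d was modestly higher, and Cdkn2c lay near a ratio of 1. Cdkn2b, which encodes p15INK4b, stood at -6.30 in heart-1 and -6.43 in heart-2. Its mean of -6.36 ± 0.09 (SD, n = 2) put it 82.4-fold lower in heart (95% interval 71.1 to 95.5; limma adjusted p = 0.00136). Of the 19532 genes, 31 had a lower mean ratio. Both arrays placed it at the low end of the distribution.

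Cdkn2a stood at -6.03 in heart-1 and -6.07 in heart-2, a mean of -6.05 ± 0.03 (SD, n = 2). It was 66.3-fold lower in heart (95% interval 60.1 to 73.2; limma adjusted p = 0.00136), and 42 genes had a lower mean ratio. Cdkn2b lies beside it on chromosome 4. A single probe measured Cdkn2a, so transcripts from the Arf and the Ink4a start could not be told apart.

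Cdkn2c encodes p18INK4c and lies elsewhere on chromosome 4. Its probes stood at -0.03 and -0.14 in heart-1 and at 0.01 and -0.05 in heart-2, with 3 values just below 0 and 1 just above it. The gene mean was -0.05 ± 0.04 (SD, n = 2) and did not pass (limma adjusted p = 0.364). The 95% interval of heart over MEF ran from 0.867 to 1.07-fold, so a 2-fold difference in either direction lies outside it, as far as the spread between these arrays goes. Channel intensities were not used here, so whether the Cdkn2c probes read above background is unknown.

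Cdkn2d, which encodes p19INK4d, had 0.52 in heart-1 and 0.61 in heart-2. It was 1.48-fold higher in heart (mean 0.56 ± 0.06, SD, n = 2; 95% interval 1.31 to 1.67-fold; limma adjusted p = 0.00772). That is a small ratio in this data set: 5352 genes had a higher one. Tested against a 2-fold change rather than against no change, with limma's treat, it did not pass (adjusted p = 1.00).

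**Figure D1:**
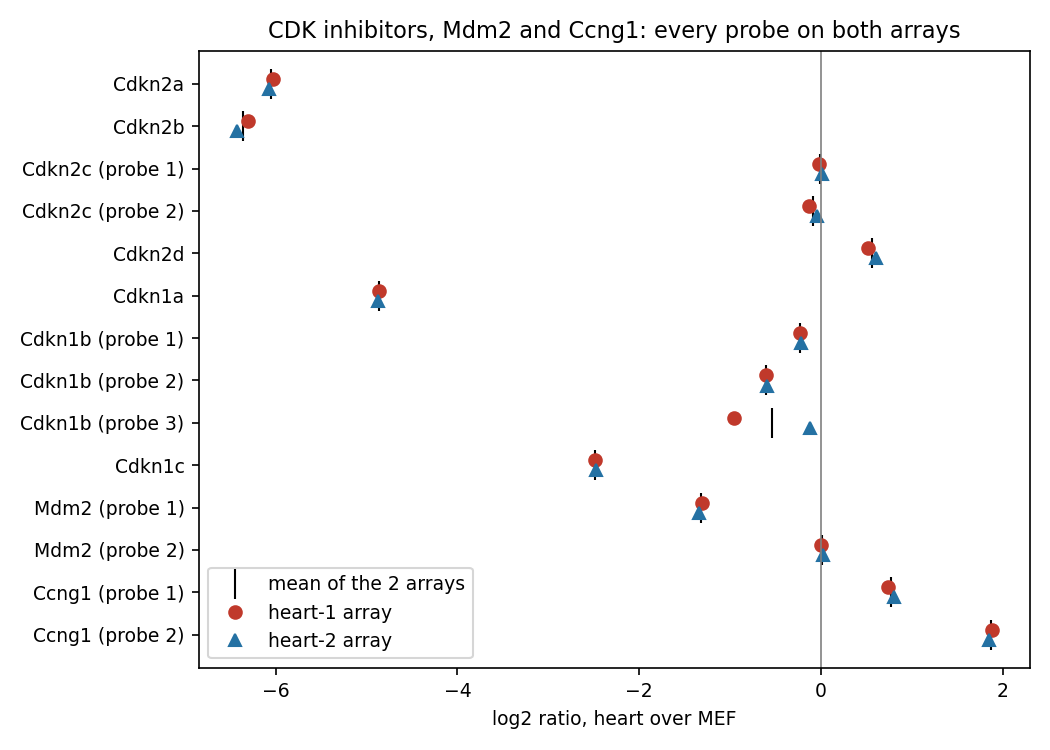
Log2 ratio of heart over MEF (horizontal axis) for each of the 14 probes of the 9 measured genes, with a circle for the heart-1 array, a triangle for the heart-2 array and a tick for their mean. Cdkn2b, Cdkn2a, Cdkn1a and Cdkn1c lie far below 0 on both arrays, the Mdm2 probes lie apart at -1.33 and 0.01, and the third Cdkn1b probe is the one whose arrays are far apart.

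In the CIP/KIP family Cdkn1a and Cdkn1c were lower in heart, while Cdkn1b was close to the threshold. Cdkn1a encodes p21, the inhibitor through which p53 halts the cell cycle. It stood at -4.86 in heart-1 and -4.88 in heart-2. The mean of -4.87 ± 0.01 (SD, n = 2) corresponds to 29.2-fold lower in heart (95% interval 26.6 to 32.1; limma adjusted p = 0.00136), and 114 genes had a lower mean ratio. The arrays differed by 0.0189, far less than the distance of either from 0.

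Cdkn1c encodes p57, an imprinted inhibitor expressed from the maternal chromosome and active in embryonic tissues. Its single probe gave -2.49 in heart-1 and -2.47 in heart-2. It was 5.59-fold lower in heart (mean -2.48 ± 0.01, SD, n = 2; 95% interval 5.09 to 6.14; limma adjusted p = 0.00136), with 977 genes at a lower ratio.

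Cdkn1b encodes p27, an inhibitor associated with quiescent cells. Its 3 probes stood at -0.23, -0.60 and -0.96 in heart-1 and at -0.22, -0.60 and -0.12 in heart-2. The first and second probe gave nearly the same value on both arrays, whereas the third, annotated to a cDNA record other than the RefSeq mRNA, differed by 0.840 between them. On the heart-2 array its value lay in a dense band of near-constant ratios from -0.22 to -0.08 that held 6271 of the 41174 probes. No other value of a member lay in that band or in the band of the heart-1 array (0.1 to 0.2, 5367 probes). The first Cdkn1b probe, at -0.222 in heart-2, lay just below the lower edge of the heart-2 band.

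Averaged over its probes, Cdkn1b was at -0.45 ± 0.20 (SD, n = 2) and did not pass (limma adjusted p = 0.0504); the 95% interval, which is not adjusted for the number of genes, was 1.04 to 1.80-fold lower in heart. It passed by a small margin once each array was centred on its median (limma adjusted p = 0.0414) or scaled (0.0436). P-values after centring are not on the footing of the main fit. For Cdkn2b the limma adjusted p was 2.29e-234 with median centring, against 0.00136 in the main fit. Cdkn1b also passed (0.0496) when probes lying in the dense band on both arrays were left out, a filter that removed none of its probes and left its mean unchanged. Over all alternatives but treat its adjusted p ran from 0.0414 to 0.248. Tested probe by probe over all 41174 probes, the first and second passed (limma adjusted p = 0.0378 and 0.00719) and the third did not (0.235). The mean of the first and second probe was -0.41, so the size differed little, and the wide spread came from the third.

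For Mdm2 and Ccng1 the probes of the gene disagreed more than the arrays did. Mdm2 had 1 probe at -1.31 in heart-1 and -1.34 in heart-2, and another at -0.00 and 0.02. The first was 2.51-fold lower in heart (limma adjusted p over all probes = 0.0029), and the second did not pass (0.880), with a 95% interval of -0.15 to 0.17 on the log2 scale. Their means lay 1.34 apart, against a largest gap of 0.0265 between the arrays for either probe. Both are annotated to the same RefSeq mRNA, and the parts of it they match were not analysed here. Whether the second probe read above background is unknown, because channel intensities were not used.

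The gene mean of Mdm2 was -0.66 on both arrays, or 1.58-fold lower in heart, and it passed (limma adjusted p = 0.00406). That mean stands for neither probe, and its SD of 0.000134 covers only the arrays. Of the 8511 genes with more than 1 probe, 39.1% had probe means of both signs, and their probe means lay a median of 0.95 apart.

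Ccng1 encodes cyclin G1, a p53 target that binds MDM2. One probe stood at 0.74 in heart-1 and 0.81 in heart-2, the other at 1.88 and 1.85. Both passed (limma adjusted p over all probes = 0.0062 and 0.00233), at 1.71-fold and 3.64-fold higher in heart. They shared the direction but not the size. The gene mean was 1.32 ± 0.01 (SD, n = 2), 2.49-fold higher in heart (95% interval 2.27 to 2.74, which leaves out the gap between probes; limma adjusted p = 0.00181), and 2949 genes had a higher ratio.

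Most genes passed the same test, so the number of members called says little about them. Of the 9 measured members 7 were called (77.8%), against 73.1% of all genes tested. Of the 14 member probes 10 were called in the fit per probe, against 66.5% of all probes. Called lower in heart were 5 of 9 (Cdkn2a, Cdkn2b, Cdkn1a, Cdkn1c and Mdm2), against 39.3% of all genes. Called higher were Cdkn2d and Ccng1, 2 of 9, against 33.8% of all genes. At least 4-fold lower on both arrays were 4 of 9 members, against 7.20% of all genes, and 0 of 9 were at least 4-fold higher, against 8.99%. At least 2-fold lower on both arrays were those same 4, against 18.5% of all genes, and Ccng1 alone was at least 2-fold higher, against 18.1%, so that 5 of 9 were 2-fold apart in either direction, against 36.6%. The treat test against a 2-fold change called 5 of 9, against 29.7% of all genes.

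In order of their ratios the members ran Cdkn2b, Cdkn2a, Cdkn1a, Cdkn1c, Mdm2, Cdkn1b, Cdkn2c, Cdkn2d and Ccng1. The closest neighbours were Mdm2 and Cdkn1b, whose means lay 0.202 apart while the SD of Cdkn1b was 0.202 and their probe means overlapped. The gap between Cdkn2b and Cdkn2a was 0.312, against a larger SD of 0.0903. For every pair of neighbours in the order the array values of the genes did not overlap. Ratios of different genes come from different probes, whose dye preferences are not known, so the order is a description.

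**Figure D2:**
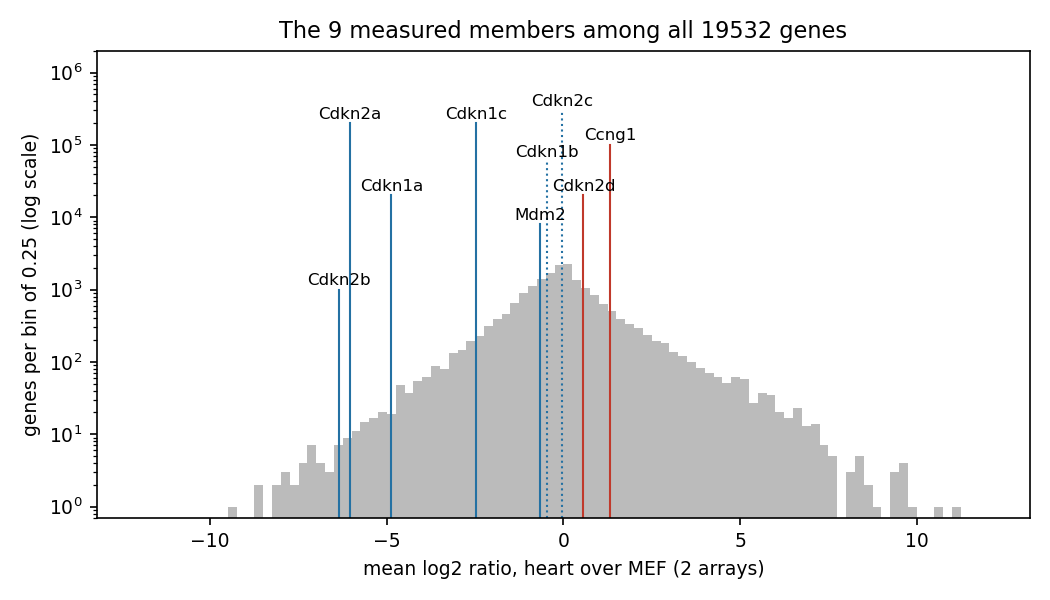
Number of genes (vertical axis, log scale) by mean log2 ratio of heart over MEF in bins of 0.25, for all 19532 genes, with a line at each of the 9 measured members (blue below 0, red above 0, dotted where the gene did not pass). Cdkn2b, Cdkn2a and Cdkn1a lie in the low tail at -6.36, -6.05 and -4.87, and Cdkn2c lies near the peak at -0.05.

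By their gene means, the kinases that these proteins inhibit and their cyclins were lower in heart as well. Of 10 measured genes of D-type and G1/S cyclins and their kinases 10 fell (39.3% of all genes fell), with a list median of -2.38 against -0.04 over all genes. Cyclin A2, Ccna2, stood at -3.58, and cyclin E1, Ccne1, was 9.49-fold, the INK4 target Cdk4 9.49-fold and cyclin D2, Ccnd2, 6.81-fold lower. Cdk2 and Cdk1, named after their values were seen, had gene means of -0.88 and -2.50. Their probes disagreed, with probe means of -1.81 and 0.06 for Cdk2 and of -4.67 and -0.33 for Cdk1. Of 8 proliferation markers 8 fell too, from -4.66 for Tpx2 to -1.68 for Mcm2, with Plk1 at -4.07. All 8 fibroblast markers fell (Col1a1 -7.38, Col1a2 -6.24). All 6 endothelial markers (Cdh5 7.53, Emcn 4.84) and 3 of 3 measured erythroid markers (Alas2 6.58, Hba-a1 6.27) rose (33.8% of all genes rose). The 9 cardiomyocyte markers were used above to read the direction of the ratios, so their positive sign is no separate result. Of 5 measured leukocyte markers 2 rose, with S100a8 at 9.38, and 2 fell, with Adgre1 at -1.68, shares near the 33.8% and 39.3% of all genes. Only ratios are given, so no level of a marker in heart or in MEF can be stated. In such bulk RNA fewer cells of a type and less RNA per cell cannot be told apart, and the part of cell makeup in the ratios of the inhibitors was not tested.

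Downstream of the kinases, the pocket proteins and E2F factors split. Of 11 measured genes 6 fell and 5 rose (33.8% of all genes rose), with a median of -0.78. E2f1 was 9.56-fold lower in heart, E2f8 4.73-fold and the pocket protein p107, Rbl1, 4.61-fold. E2f2 was 4.56-fold higher, E2f6 4.04-fold and E2f4 1.75-fold. The other pocket protein genes also rose, Rb1 to 0.56 ± 0.06 and Rbl2 to 0.76 ± 0.08 (SD, n = 2); these were named after their values were seen.

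Among 23 measured p53 target genes other than the members 16 fell and 6 rose, against 39.3% and 33.8% of all genes, 1 did not pass, and the list median was -1.96 against -0.04 over all genes. Pmaip1, the pro-apoptotic protein Noxa, stood at -6.22 in heart-1 and -6.15 in heart-2, 72.9-fold lower in heart. The death receptor Tnfrsf10b was 7.42-fold lower and the stress sensor Sesn2 6.70-fold lower, with the Sesn2 probe means at -3.79 and -1.70. In the other direction Perp, a p53 target that is also a desmosome protein, was 23.6-fold higher, and Sesn1, a relative of Sesn2, was 4.93-fold higher over 3 probes. Rrm2b, a ribonucleotide reductase subunit induced by p53, rose to 1.36 ± 0.49 (SD, n = 2; limma adjusted p = 0.0316), but its probe means were -1.13 and 3.85. Of the p53 targets among the members, Cdkn1a fell and Ccng1 rose, while the probes of Mdm2 disagreed.

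Of 17 measured regulators of p53 9 fell and 2 rose, against 39.3% and 33.8% of all genes. The other 6 did not pass, the median was -0.66, and the share called was below the 73.1% of all genes. The checkpoint kinases Chek1 and Chek2 were 7.91-fold and 4.48-fold lower in heart. Npm1, nucleophosmin, which holds ARF in the nucleolus, was 2.63-fold lower, and the ribosomal protein Rpl5, which binds MDM2, 2.36-fold lower. Rchy1, another ubiquitin ligase of p53, was 2.22-fold higher, and the kinase Atr was 1.64-fold higher over 6 probes whose means ran from -0.02 to 2.64. The mean log2 ratio of Atr, 0.72, was 0.23 with the median of its probes and 1.08 with probes of the dense band on both arrays left out, and its call was lost without variance moderation (limma adjusted p = 0.12). Mdm4, the partner of MDM2, was named after its values were seen: it stood at -0.83 in heart-1 and -0.85 in heart-2, with all 5 of its probes below 0 (-1.28 to -0.52).

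A list for the turnover and cofactors of CIP/KIP inhibitors also took in Cdt1, which shares the receptor Dtl with p21. Of its 8 measured genes 6 fell and 2 rose, against 39.3% and 33.8% of all genes, with a median of -2.76. Skp2, the ubiquitin ligase subunit that targets p27, was 13.2-fold lower. Cdc20, which activates the anaphase-promoting complex and with it the destruction of p21 in mitosis, was 17.6-fold lower. Dtl (also known as Cdt2), the substrate receptor for p21 and Cdt1, was 9.29-fold lower and Cdt1 itself 7.63-fold lower. The Dtl probe means were -4.39 and -2.04. The ligase core subunits Skp1 and Cul1 were 1.59-fold and 1.13-fold higher, Cul1 over 3 probes whose means ran from -0.48 to 0.79. The call of Cul1 (mean 0.18, limma adjusted p = 0.0437) was lost without variance moderation. It was lost in the fits with centred arrays as well, though the mean hardly moved. The mean was 0.22 with centring on the median (limma adjusted p = 0.319) and 0.17 with centring on the densest bin (0.545).

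**Figure D3:**
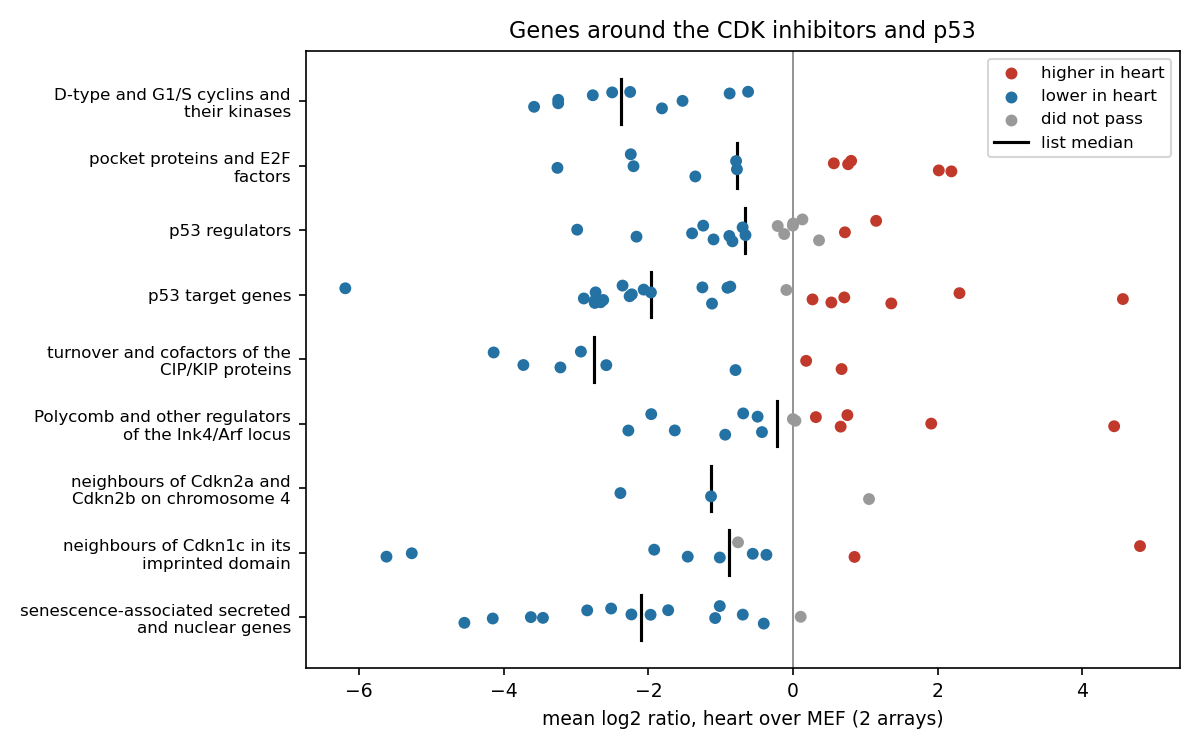
Mean log2 ratio of heart over MEF (horizontal axis) for each measured gene of 9 gene lists around the CDK inhibitors and p53, with 1 point per gene, coloured by whether it passed as higher or lower in heart, and a bar at the list median. All 10 cyclin and kinase genes lie below 0, whereas the E2F and pocket protein genes lie on both sides.

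Among 14 measured repressors and activators of the Ink4/Arf locus 7 fell and 5 rose, shares near the 39.3% and 33.8% of all genes, 2 did not pass, and the list median was -0.22. The Polycomb protein Cbx7, which represses the locus in mouse fibroblasts, stood at 4.43 in heart-1 and 4.45 in heart-2, 21.7-fold higher in heart. Ezh2, the histone methyltransferase of Polycomb, was 4.84-fold lower, and Kdm6b, a demethylase that removes its mark, 3.89-fold lower. Id1, an inhibitor of helix-loop-helix factors, was 3.76-fold higher and Ets1, known in human cells as an activator of p16INK4a transcription, 1.68-fold higher.

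The listed genes around Cdkn2a and Cdkn2b had higher ratios than either. That was so for nearly all genes, as only 42 and 31 of 19532 had a lower one. Of 3 listed neighbours 2 fell and 1 did not pass, and 73.1% of all genes were called in either direction. Mtap, the enzyme that salvages methylthioadenosine, stood at -1.13 and -1.14, or 2.19-fold lower in heart. Elavl2, a neuronal RNA-binding protein gene, was 5.23-fold lower, with probe means of -3.51 and -1.26. The neighbour that did not pass was Dmrta1, named after its values were seen, at 2.25 in heart-1 and -0.15 in heart-2.

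Around Cdkn1c, in an imprinted region of chromosome 7, 7 of 10 listed genes fell and 2 rose, against 39.3% and 33.8% of all genes, 1 did not pass, and the median was -0.89. The fetal growth factor Igf2 was 49.2-fold and the non-coding RNA H19 38.6-fold lower in heart. Osbpl5, an oxysterol-binding protein relative, was 3.78-fold lower. Kcnq1, the potassium channel that repolarises cardiac muscle, was 27.8-fold higher and Nap1l4, a histone chaperone, 1.80-fold higher. Ratios in the region ran from -5.62 to 4.80, with Cdkn1c at -2.48 between them.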

How the data were processed

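The authors deposited 1 value per probe and array, taken here as a log2 ratio; per the submitters' processing notes the arrays were read with Agilent Feature Extraction. Its version, the background correction, the dye normalization, filters and centring were not stated. The log base was inferred: the largest absolute value was 11.62, which as log10 would exceed any scanner's range. Medians were 0.07 (heart-1) and -0.14 (heart-2). Channel intensities were not used here, so signal over background is unknown and precision is limited by the 2 arrays.

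Probes with 1 symbol in the platform annotation (32664 of 41174; 45 had several, 8465 none here) were averaged per gene and array. Identifiers of 9 of 9 member genes matched RefSeq. Each gene's mean was compared with 0 in a moderated intercept model (limma 3.58.1, R 4.3.3; lmFit, eBayes, two-sided, Benjamini-Hochberg over 19532 genes, threshold 0.05), where 1 residual degree of freedom was joined by 1.25 prior ones. The smallest adjusted p, 0.00136, is shared by many genes. The fit was tested on simulated data with independent noise and few changed genes, which held neither dye bias nor an array offset. A second fit ran per probe. Tables and figures were made with Python 3.11.15.

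All members were named, with up to 4 called genes of each pathway list by size of ratio and up to 3 against its majority, and up to 2 of each marker list. With 2 arrays no likeness between gene patterns was computed. Members and lists were chosen with earlier results of these data known. Alternatives covered centring, scaling, probe summary, probe filters, the variance prior, the null hypothesis and each array left out.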

Additional observations from a re-analysis of the deposited data

How the results depend on the processing

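All 9 measured members kept the sign of their mean ratio in each alternative run (centring on the median or the densest bin, scaling, median of probes, probe filters, robust or no variance moderation, treat, either array alone). Calls changed for Cdkn1b, which passed with arrays centred on the median (-0.42), scaled (-0.45) or with probes dense on both arrays left out (-0.45; none of its own was removed), for Cdkn2d (0.56), which was lost without moderation (adjusted p = 0.0876; 0.00289 to 0.0876 over the alternatives other than treat) and against a 2-fold change, and for Mdm2 (-0.66), lost against a 2-fold change. The lowest of these adjusted p-values for Cdkn2d, 0.00289, came from median centring, whose p-values are not on the footing of the main fit. Members called numbered 5 to 8 of 9 over the alternatives, while 5797 to 14552 of all genes were called. Of all 19532 genes, 14283 were called (73.1%), 6131 without moderation and 5797 against a 2-fold change (29.7%). The pathway lists, whose sizes are given with each list, held 98, 57 and 56 called genes in these fits. Among the named genes other than members, 13 lost their call without variance moderation and 43 kept it. Those that lost it included Atr, Chek2, E2f1, E2f4, E2f8, Dtl, Cul1, Elavl2, Id1, Ets1 and Il6. Leaving out an array leaves no residual degree of freedom, hence values with no test: the members then ran from -6.43 to 1.33 without heart-1 and from -6.30 to 1.31 without heart-2. No paired analysis was possible because the arrays form a single group. Small ratios depend on the unknown zero and dye bias.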

Other observations

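Genes often secreted by, or altered in, senescent cells were mostly lower in heart. Of 14 measured genes 13 fell (39.3% of all genes fell), 0 rose (33.8% of all genes rose) and 1 did not pass, with a median of -2.10. Lmnb1, lamin B1, was 23.3-fold lower, at -4.57 in heart-1 and -4.51 in heart-2. The cytokine Il6 stood at -4.04 and -4.26, or 17.8-fold lower, the chemokine Ccl2 was 12.3-fold lower and the protease Plau, urokinase, stood at -3.46. The gene that did not pass was Mmp3, named after its values were seen, at 0.11 and 0.10. Lamin B1 is known to be lost from senescent cells and to be plentiful in dividing ones, whereas Il6 and Ccl2 are known as secreted factors of senescent cells, and all of these fell together with Cdkn2a, Cdkn2b and Cdkn1a. Whether the MEF culture held senescent cells was not tested.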
